A study of Solanum lycopersicum with 14 samples.

Results

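Late fruit of the red-fruited tomato M82 was compared with fruit of equal age of n3122, its yellow-fruited mutant, at 54 DPA, an age the labels give as a stage and that in this field means days post anthesis. The comparison covers 18836 genes, those with at least 1 FPKM in either genotype, of the 34725 genes in the deposited table. FPKM is the fragment number scaled to transcript length and library size, so levels can be set side by side between genes. M82 is the wild type and n3122 is a mutant in the M82 background, and the labels name no mutated gene. All fruit came from plants grown in one greenhouse, and RNA was taken from the pericarp, the fleshy fruit wall. Each genotype at 54 DPA had 2 libraries, out of 14 libraries in 7 groups in the series. Whether both came from separate plants is not stated in the labels, and the authors' p-values may then measure technical spread alone.

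The deposited levels are pooled over the libraries of a genotype. They therefore carry no SD, and the depth is unknown. A gene was called where the q-value in the authors' deposited table was at or under 0.05. Higher and lower mean n3122 relative to M82, on the scale of log2((n3122 + 1) / (M82 + 1)), which understates the change of genes with low levels. No fold is given where a group is listed at 0. Where a pair of levels is printed, M82 comes first and n3122 second.

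Tomato is a climacteric fruit: ripening comes with a burst of ethylene, which is made from methionine through ACC by ACC synthases and ACC oxidases. Receptors on the endoplasmic reticulum sense the gas, and the signal passes through EIN2 to transcription factors of the EIN3 type. These act together with ripening regulators such as RIN and NOR on genes for carotenoid synthesis, wall softening and aroma, while chloroplasts lose chlorophyll and turn into chromoplasts. Lycopene gives the ripe fruit its red colour. As a check of the labelled tissue, TAGL1 and FUL2, MADS-box factors of the fruit, were expressed in both genotypes, TAGL1 at 176 and 150.1 FPKM and FUL2 at 198 and 164.

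At 54 DPA, 12 of 13 listed photosynthesis genes were higher in n3122, and 10 of 19 listed genes that regulate ripening or respond to ethylene were lower. Of the 18836 genes, 18524 had a deposited p-value under 1 and were counted as tested, a rule set here. Of these, 5540 were called (29.9%), 3380 higher (18.2%) and 2160 lower (11.7%). Among the called genes, 61.0% were thus higher. The median log2 fold change was 1.26 for genes called higher and -0.97 for genes called lower, and over all 18836 genes it was -0.02, with quartiles of -0.37 and 0.52. With a log2 fold change of at least 1 as well, 2251 genes were higher (12.2%) and 1040 lower (5.61%). On this scale the order turned for the largest differences. With a log2 fold change of -5 or beyond, 42 genes were called lower, and 24 were called higher with 5 or more. Adding 1 FPKM to each level shrinks the change of genes with low levels, and these counts were not repeated with a smaller addition. Counted by level, the order did not turn. Of called genes, 114 had under 1 FPKM in M82 and at least 10 in n3122, against 46 for the reverse.

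**Figure D1:**
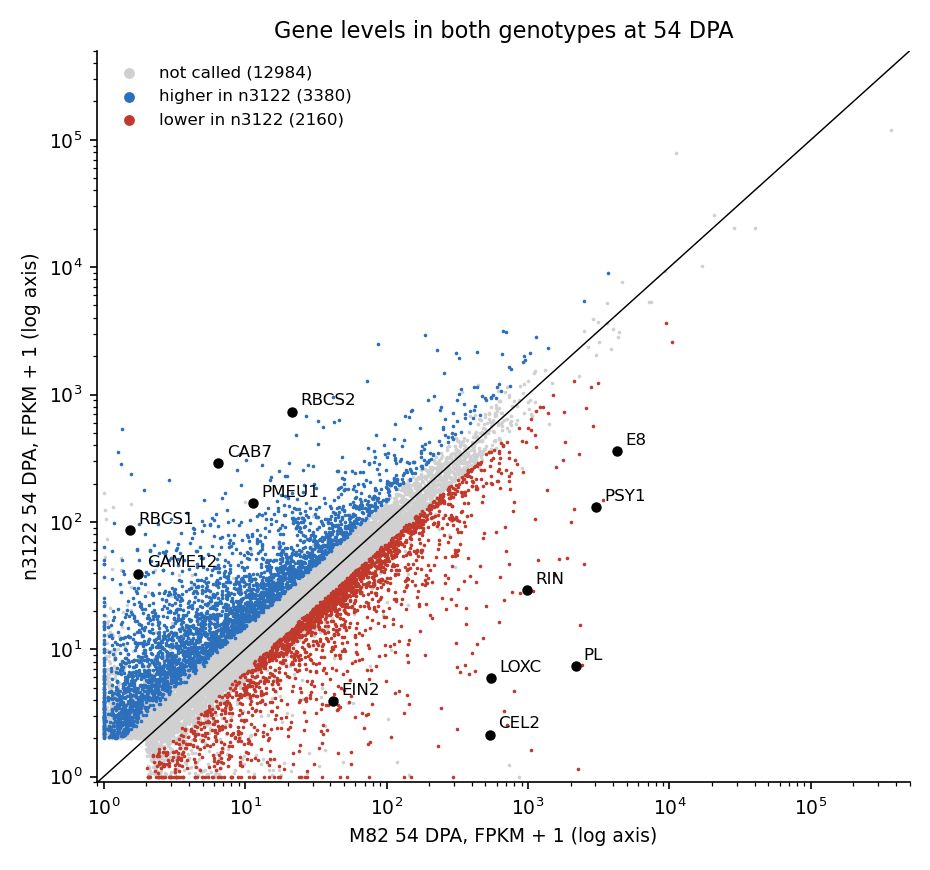
Each point is a tested gene, with its FPKM + 1 in M82 on the horizontal and in n3122 on the vertical log axis, and the line marks equal levels. Blue points (3380) were called higher and red points (2160) lower in n3122; PL, CEL2, LOXC and RIN lie far below the line, RBCS2 and CAB7 far above it.

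The direction of the calls changed with the level of the gene. Among tested genes with a mean of 3 to 10 FPKM over both groups, 24.4% were higher and 8.45% lower. From 100 to 300 FPKM the shares were 14.4% higher and 22.3% lower, and at 1000 FPKM or more 25.7% and 33.8%. Of 78 tested genes with at least 1000 FPKM in M82, 40 were lower and 5 higher. Of 70 tested genes with at least 1000 FPKM in n3122, 29 were higher and 5 lower; each of these counts conditions on the level in one genotype, which by itself favours that direction. Over the 12 chromosomes, 16.4% to 20.6% of tested genes were higher and 10.9% to 13.1% lower. Just above the minimum, between 1 and 2 FPKM in the higher group, 242 of 1232 tested genes were called, and just below it, between 0.5 and 1 FPKM, 34 of 272.

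**Figure D2:**
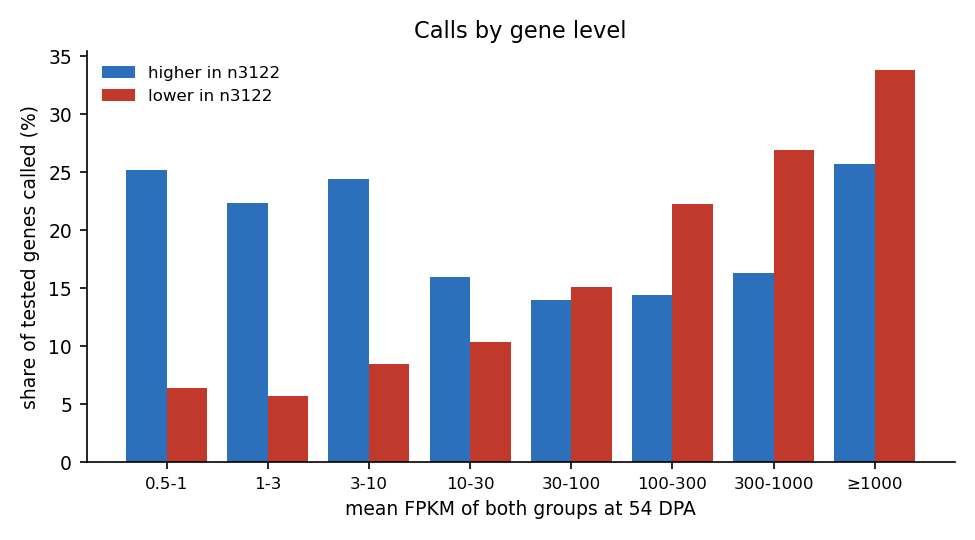
The bars give the share of tested genes called higher (blue) or lower (red) in n3122, in percent, by mean FPKM of both groups at 54 DPA. Higher calls prevail in the bands up to 30 FPKM (24.4% against 8.45% from 3 to 10) and lower calls in those above 30 (14.4% against 22.3% from 100 to 300).

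A set of genes was present in one genotype and nearly absent from the other. In 161 genes M82 had under 1 FPKM and n3122 at least 10, and 114 of them were called. In 82 genes it was the reverse, and 46 of these were called. Among called genes, Solyc01g091170 had the largest increase, from 0.349 FPKM in M82 to 531 in n3122 (log2 fold change 8.62). Solyc10g075100, among the most abundant called genes of n3122, had 187 and 2930.1 FPKM (3.96). Solyc12g088220 was among the most decreased of the called genes, with 1042 and 0.609 FPKM (-9.34), as was Solyc08g066240, with 2242 and 0.154 (-10.92). The q-values in the authors' deposited table were 0.000712, 0.000377, 0.000377 and 0.0216; the files give these genes no name. The 12 called genes with the largest increase had 0 to 1.91 FPKM in M82 and 49.0 to 531 in n3122. All 12 were also called higher at 47 DPA, and 9 of them stood at 10 FPKM or more in M82 at 35 DPA. The 12 called genes with the largest decrease had 149 to 2402 FPKM in M82 and 0 to 14.6 in n3122, 10 of them were called lower at 47 DPA as well, and 6 were under 1 FPKM in M82 at 35 DPA. The 9 genes listed at 0 in one genotype and at least 1000 FPKM in the other were not tested. They are counted within the 161 and 82 genes but are not among the called genes.

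The 10 most abundant genes took 36.1% of the total FPKM in M82 and 32.7% in n3122. The first of them in M82, Solyc02g068870, had 366822 and 119477 FPKM and was not called (q-value 0.525 in the authors' deposited table). Its level in n3122 is also printed for another gene, which is listed at 0 in M82, so both values are uncertain.

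Pathways were described with 198 genes whose symbol and identifier could be matched to the reference table, of which 182 reached 1 FPKM in either genotype. Of these 182, 57 were higher, 52 lower and 73 not called. The share called, 59.9%, cannot be read against the background of 29.9%, since the lists were written for ripening fruit with earlier results of these data known. Of the 109 called, 78 had the smallest q-value in the authors' deposited table, 0.000377, and the q-values of the others ran up to 0.0420.

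**Figure D3:**
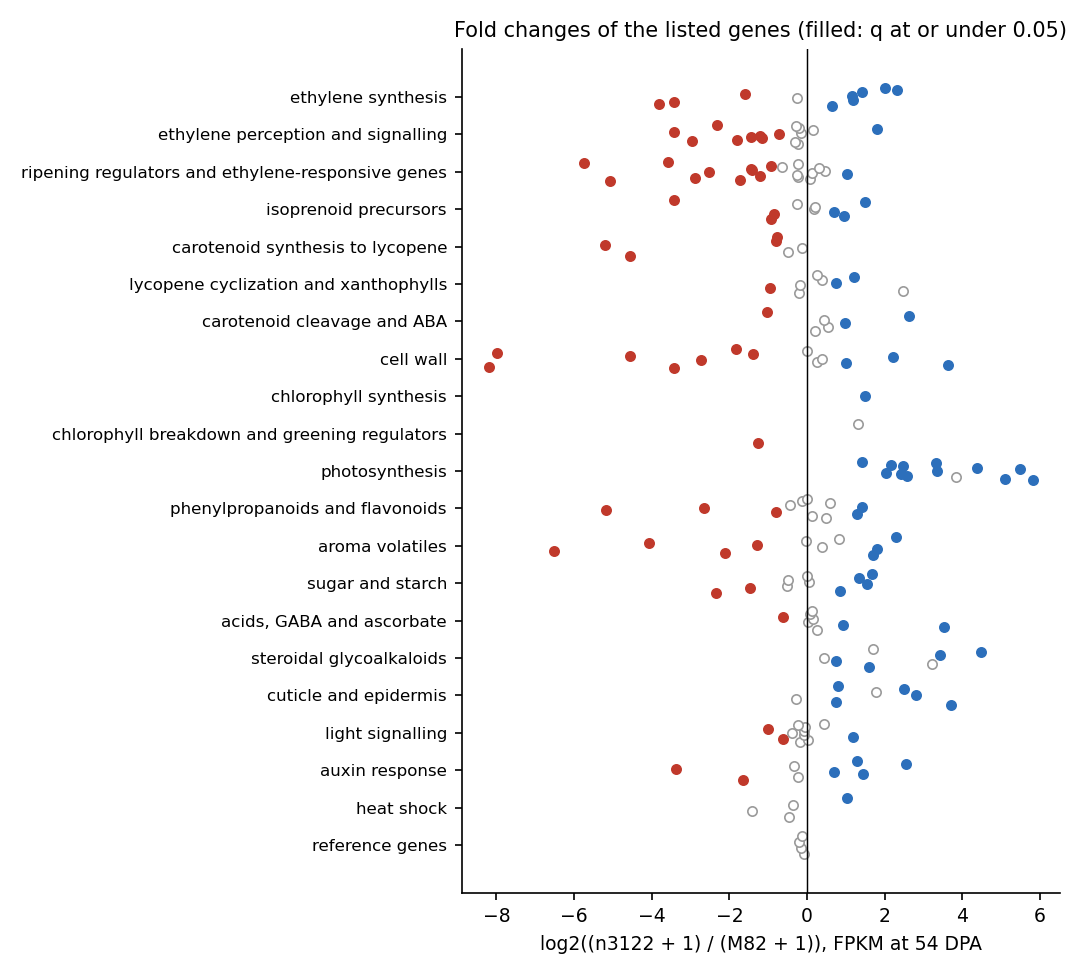
Each point is a listed gene with at least 1 FPKM in either genotype, at its log2((n3122 + 1) / (M82 + 1)); blue and red points were called higher and lower, open points were not called. CAB5, SAMT1 and IAA17, listed at 0 in M82, are drawn at the value the pseudocount of 1 gives. Photosynthesis genes lie between 1.43 and 5.81, and reference genes between -0.20 and -0.09.

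Ethylene synthesis was split by gene family member. Of 10 genes, 6 were higher and 3 lower (median log2 fold change 0.90, against -0.02 over all tested genes). The lower ones were ACS2 and ACS4, the ACC synthases of ripening, with 310.5 and 122 FPKM in M82 against 21.1 and 10.5 FPKM in the mutant, and the ACC oxidase ACO3 (12.4 and 3.43). Their log2 fold changes were -3.82, -3.42 and -1.60. Among the higher genes were ACS6, an ACC synthase of unripe fruit (12.3 and 29.1 FPKM), ACS1A (43.9 and 69.8, q-value 0.0152 in the authors' deposited table), and the oxidases ACO4 (10.1 and 28.6), ACO5 (2.94 and 18.5) and ACO6 (14.6 and 62.4). ACO1 was by far the most abundant member and was not called, at 1489 and 1238 FPKM (log2 fold change -0.27, q-value 0.539 in the authors' deposited table).

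Ethylene perception and signalling was mostly lower, with 8 of 15 genes lower and 1 higher (median -0.71). EIN2 (Solyc09g007870), the central transducer, had 40.8 and 2.91 FPKM (log2 fold change -3.42). Of the 7 receptor genes, 5 were lower: NR, at 257 and 32.0 FPKM (-2.97), ETR4 at 236 and 66.4, ETR6 at 30.9 and 10.7, ETR7 at 36.7 and 15.3, and ETR5 at 8.78 and 3.35. ETR1 (24.4 and 20.4 FPKM) and ETR2 (25.8 and 20.7) were not called. NR and ETR4, the most abundant receptors in M82, thus had the largest differences of the 7. CTR1, the kinase that holds back the signal, was lower (39.0 and 23.4 FPKM), and CTR3 was not called. EBF1, an F-box protein that removes EIN3-type factors, was lower at 189.6 and 37.5 FPKM (-2.31). Among those factors EIL2 was higher, at 13.4 and 48.8 FPKM (1.79), whereas EIL1, EIL3 and EIL4, each between 72.9 and 95.3 FPKM in both genotypes, were not called.

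Among ripening regulators and genes that respond to ethylene, 10 of 19 were lower and 1 higher (median -0.93). RIN, the MADS-box regulator, had 977 and 28.3 FPKM (log2 fold change -5.06). The other lower regulators kept more of their level: the NAC factor NOR was at 475 and 142 FPKM (-1.73), the SBP-box factor CNR at 269 and 35.3 (-2.89), AP2A, which restrains ripening, at 315 and 54.2 (-2.52), and the RIN partner FUL1 at 730.4 and 315 (-1.21). DML2, a DNA demethylase of ripening, was lower at 209 and 109 FPKM (-0.93), and MET1, a maintenance methyltransferase, was not called at 12.5 and 10.4. Of the ethylene response factors, ERF.E4 (693 and 253 FPKM) and ERF.B3 (23.3 and 8.01) were lower, while ERF.E1 (60.5 and 75.0) and ERF.E2 (1060.2 and 677, q-value 0.0616 in the authors' deposited table) were not called. The ethylene-responsive E4 and E8 showed some of the widest gaps of the list, at 2477 against 45.6 and 4274 against 356 FPKM. TAG1, an AGAMOUS-type factor, was the higher one (37.3 and 76.8 FPKM). TAGL1, FUL2, MADS1, HB1 and NOR-like1 were not called, with log2 fold changes from -0.27 to 0.46.

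**Figure D4:**
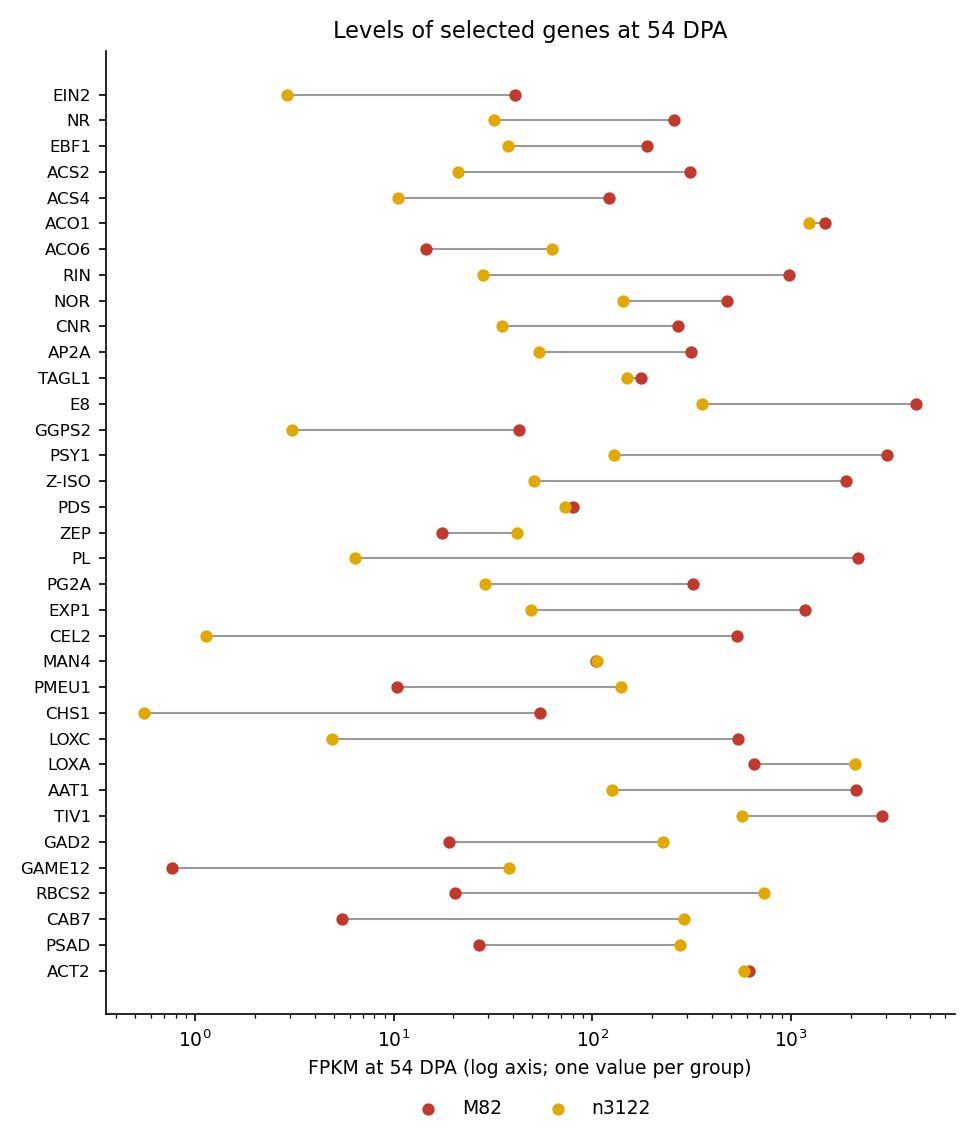
Levels at 54 DPA on a log axis in FPKM, with red points for M82 and yellow points for n3122, one value per group joined by a line. RIN, E8, PSY1, PL and LOXC are far higher in M82, RBCS2, CAB7 and GAME12 far higher in n3122, and ACO1, TAGL1, PDS, MAN4 and ACT2 lie close together.

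Of 6 genes of carotenoid synthesis up to lycopene, 4 were lower and none higher (median -0.79), by unequal sizes. PSY1, the phytoene synthase of fruit, had 3034 and 129 FPKM (log2 fold change -4.55), and Z-ISO, the zeta-carotene isomerase, 1898 and 50.7 (-5.20). ZDS, the zeta-carotene desaturase, and CRTISO, the carotenoid isomerase, were lower by less, at 80.8 against 46.0 and 118 against 68.5 FPKM (-0.80 and -0.78). PDS, the phytoene desaturase, was not called at 79.9 and 72.7 FPKM, nor was PSY2, the leaf synthase, at 16.3 and 11.3. Upstream, 3 of 9 precursor genes were lower and 3 higher. GGPS2, a geranylgeranyl diphosphate synthase, was lower at 42.8 against 3.08 FPKM (-3.42), as were DXS1 (136 and 71.6), the first enzyme of the MEP pathway, and CMK (95.8 and 52.6). IPI2, an isopentenyl diphosphate isomerase, was higher at 18.3 and 53.5 FPKM (1.49), and so were DXR (25.8 and 50.8) and MDS (37.8 and 61.9).

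Past lycopene, 2 of 8 genes were higher and 1 lower. ZEP, the zeaxanthin epoxidase, had 17.5 and 41.6 FPKM (log2 fold change 1.20), CYP97A29, a P450 hydroxylase, 11.0 and 19.0, and CRTRB1, a beta-carotene hydroxylase, 62.2 and 31.7 (-0.95). CYCB, the chromoplast lycopene beta-cyclase, was low in both genotypes and not called (2.62 and 2.15 FPKM). LCYE, the epsilon-cyclase, was not called either, at 0.0764 and 5.01 FPKM (log2 fold change 2.48, q-value 0.147 in the authors' deposited table). It was called higher at 47 DPA (1.46 and 6.03 FPKM) and at 35 DPA (9.55 and 20.5). In the turnover of abscisic acid, NCED1, the dioxygenase of its synthesis, was higher at 80.1 and 158 FPKM (0.97). The hydroxylases that break it down were split, with CYP707A1 higher at 2.35 and 19.6 FPKM (2.62) and CYP707A2 lower at 58.7 and 28.1 (-1.04).

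Of 13 wall genes, 7 were lower and 3 higher (median -1.38). The lower group held PL, the pectate lyase of softening, at 2166 and 6.40 FPKM (log2 fold change -8.19), CEL2, an endo-glucanase, at 537 and 1.14 (-7.98), EXP1, the ripening expansin, at 1182 and 49.1 (-4.56), PG2A, the fruit polygalacturonase, at 320.1 and 28.9 (-3.43), the beta-galactosidase TBG4 at 137 and 19.8, and XTH5 at 735 and 208. CEL1 was low in both (2.22 and 0.236 FPKM). The pectin methylesterases went the other way or were not called. PMEU1 had 10.4 and 139 FPKM (3.62), PE1 944 and 1879 (0.99, q-value 0.0140 in the authors' deposited table), and PE2 148 and 177, not called. TBG6, another beta-galactosidase, was higher at 6.31 and 32.9 FPKM (2.22). MAN4, an endo-mannanase, was not called at 105 and 106 FPKM. PE1 and PE2 are close copies, and their reads may be split between them.

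Photosynthesis genes were higher almost throughout, 12 of 13 with none lower (median 3.31). This was not particular to 54 DPA: of the 14 listed, 13 were called higher at 47 DPA and 10 at 35 DPA, with none lower at either age. RBCS2, a Rubisco small subunit, had 20.3 and 733 FPKM (log2 fold change 5.11), and the chlorophyll-binding protein CAB7 5.47 and 290.0 (5.49). PSAD of photosystem I had 27.0 and 277 FPKM (3.31), PSBP and PSBO of the oxygen-evolving complex 44.0 and 249 (2.47) and 27.9 and 128 (2.16), and PETE, plastocyanin, 41.9 and 114 (1.43). CAB5 was at 0 in the table for M82 but 3.12 FPKM for n3122. RBCS3 was not called at 0.362 and 18.5 FPKM (q-value 0.0856 in the authors' deposited table). Genes of the Rubisco and chlorophyll-binding families are near-identical copies in places, and how reads were shared among them is not given in the sources used here, so single members are uncertain. POR3, a protochlorophyllide oxidoreductase of chlorophyll synthesis, was higher at 13.9 and 41.1 FPKM. SGR1, which acts in chlorophyll breakdown, was lower at 622 and 258 (-1.27).

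The largest differences among the flavonoid genes were at the entry step. CHS1 and CHS2, the chalcone synthases, had 54.8 and 95.7 FPKM in M82 against 0.554 and 14.3 FPKM in the mutant (log2 fold changes -5.16 and -2.66). Of 11 genes, 3 were lower, these and the ligase 4CL (155 and 88.9 FPKM), and 2 higher, PALd, a phenylalanine ammonia-lyase (2.06 and 6.49), and CHI, a chalcone isomerase (1.58 and 5.90, q-value 0.00491 in the authors' deposited table). The next enzyme, F3H (81.5 and 59.9 FPKM), and the regulator MYB12 (13.3 in both) were not called.

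Among 10 aroma genes 4 were lower and 3 higher, and the lipoxygenases alone went both ways. LOXC, which serves volatile synthesis, had 543 and 4.92 FPKM (log2 fold change -6.52), and LOXB 1818 and 423 (-2.10). LOXA was higher at 649 and 2096 FPKM (1.69, q-value 0.00189 in the authors' deposited table), as was LOXD, which serves jasmonate synthesis, at 25.0 and 90.3 (1.81). AAT1, the alcohol acyltransferase of ester synthesis, was lower at 2117 and 125 FPKM (-4.07), and ADH2, an alcohol dehydrogenase, at 2770.5 and 1142 (-1.28). SAMT1, a salicylate methyltransferase, was at 0 in the table for M82 but 3.90 FPKM for n3122. HPL, the hydroperoxide lyase, was not called at 32.8 and 43.0.

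Sugar, starch and amino acid genes held a few wide differences among many small ones. TIV1, the vacuolar invertase, was lower at 2886 and 567 FPKM (log2 fold change -2.35), and LIN6, a cell wall invertase, at 5.91 and 1.50 (-1.47). Starch genes were higher in part: GBSS1, the granule-bound synthase, had 16.8 and 56.3 FPKM (1.69) and AGPL1, a large subunit of ADP-glucose pyrophosphorylase, 1.99 and 6.59 (1.34), while AGPL2 was not called (46.1 and 46.4). The sucrose synthase SUSY was higher (11.8 and 36.5 FPKM) and SUS3 was not called (126 and 130.4). Of 3 glutamate decarboxylase genes, which make GABA, GAD2 was far higher at 18.9 and 227 FPKM (3.52), GAD3 was higher at 3.13 and 6.88, and the most abundant in M82, GAD1, was not called at 309 and 370.4.

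Of 7 steroidal glycoalkaloid genes, 4 were higher and none lower (median 1.71). GAME12, a transaminase, had 0.762 and 38.3 FPKM (log2 fold change 4.48), and the dioxygenase GAME11 3.01 and 42.0 (3.42). GAME1 and GAME6 were higher at low levels, and GAME4, at 0.0547 and 8.80 FPKM, was not called (q-value 0.0547 in the authors' deposited table). Auxin response genes were split, 4 of 8 higher and 2 lower. IAA3, an Aux/IAA repressor, was among the lower ones at 349.6 and 33.1 FPKM (-3.36). ARF4 was higher at 9.84 and 28.4 FPKM (1.44) and IAA27 at 12.5 and 31.9 (1.29), and IAA17 was at 0 in the table for M82 but 4.81 FPKM for n3122. Of 11 light signalling genes, 8 were not called; HY5, a bZIP factor of light responses, was lower at 24.3 and 11.7 FPKM and the phytochrome PHYE higher at 1.43 and 4.56. Of 4 heat shock genes, HSFA3, a heat stress factor, was higher at 40.6 and 84.0 FPKM. None of 4 reference genes (ACT2, CAC, EF1A, GAPDH) was called.

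Markers of the epidermis, another cell type of the pericarp, were higher too, 5 of 7 with none lower and none listed at 0. CD1, the cutin synthase, had 0.448 and 18.1 FPKM (log2 fold change 3.72), and the triterpenoid synthase TTS1 0.902 and 9.65 (2.49). The summed level of the 7 was 145 and 183 FPKM, most of it from CER6, a wax enzyme that was not called (114 and 93.6); without CER6 the sums were 31.5 and 89.9. At 47 DPA 4 of the 7 were called higher and none lower, and at 35 DPA none was called. The markers differed in their course with age in M82, with each age scaled separately. At 35, 47 and 54 DPA in turn, CD1 stood at 289, 0.484 and 0.448 FPKM in M82. CD2 stood at 27.8, 29.3 and 29.2, and CER6 at 98.5, 89.7 and 114. In bulk tissue, more cells of a type and more RNA per cell cannot be told apart, and the part of the epidermis in the other results was not tested.

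The comparison at 54 DPA shared most of its calls with that at 47 DPA, made on other libraries of the same genotypes. Among 18028 genes tested at both ages, 3212 were called in the same direction, 59.4% of the calls at 54 DPA and 75.0% of those at 47 DPA, where 23.8% of tested genes were called, 13.8% higher and 9.97% lower. Only 30 genes were called in opposite directions. The log2 fold changes had a Spearman correlation of 0.78 over these genes, as a description, since genes are not independent. With the 35 DPA comparison, where 3.28% of tested genes were called (1.94% higher and 1.35% lower), 332 of the 407 genes called at both ages had the same direction, 6.44% of the calls at 54 DPA, and the correlation was 0.18. In the opposite direction, 57 were higher at 54 DPA and lower at 35 DPA, and 18 the reverse.

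Levels at 54 DPA were set beside those at 47 DPA, with the limit that each table was scaled separately and that differences between ages were not tested. From 47 to 54 DPA, 1206 of the 18028 genes differed in M82 by at least 1 on the log2 scale and 263 in n3122. Genes called lower at 47 DPA and no longer called at 54 DPA numbered 582. Of these, 93.8% were at a lower level in M82 at 54 than at 47 DPA, against 39.9% of the 11575 genes called at neither age. The level in n3122 was higher at 54 DPA in 85.7% of the 582, against 68.0% of the genes called at neither age. Of 1307 genes called higher only at 54 DPA by the same threshold, 87.5% were at a lower level in the older M82 fruit. In n3122, 62.7% of them were at a higher level in the older fruit, less than the 68.0% of genes called at neither age. These shares are partly set by how the groups were formed.

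Among the listed genes, 14 were lower at 47 DPA and not called at 54 DPA. The level in M82 was lower at 54 DPA in each of the 14, and that in n3122 was higher in 13. MAN4 stood at 1135 and 31.5 FPKM at the younger age and at 105 and 106 FPKM at the older. At 47 and 54 DPA in turn, M82 had 50.2 and 13.3 FPKM of MYB12, 170.3 and 32.8 of HPL, and 299 and 81.5 of F3H. PG2A remained lower in n3122 but its level in M82 was 3598 FPKM at 47 DPA and 320.1 at 54 DPA. PL, CEL2, EXP1 and LOXC did not show this, with 1832, 265, 859 and 393 FPKM in M82 at 47 DPA and 2166, 537, 1182 and 543 at 54 DPA.

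Another 20 listed genes were higher at 54 DPA and not called at 47 DPA. At 54 DPA the level in M82 was lower in 19 of the 20, and that in n3122 was higher in 15. Over all 1307 genes of this kind the shares were 87.5% and 62.7%. The 20 included ACO4, ACO5, NCED1, LOXA, PE1, IPI2, DXR and MDS. NCED1 stood at 139 and 129 FPKM in the younger fruit and at 80.1 and 158 FPKM at 54 DPA. For LOXA the levels were 669 and 1128 FPKM at 47 DPA and 649 and 2096 at 54 DPA. ACO6 was lower at 35 and 47 DPA and higher at 54 DPA. Its level in M82 was 135, 166 and 14.6 FPKM at the 3 ages and in n3122 83.1, 80.2 and 62.4, so the level in M82 differed more between 47 and 54 DPA than that in n3122. LIN6 was the one listed gene that was higher at 47 DPA (0.596 and 2.15 FPKM) and lower at 54 DPA (5.91 and 1.50). EIN2 was lower at each age, with 2.50 to 3.75 FPKM in n3122 and 35.0 to 48.9 in M82.

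**Figure D5:**
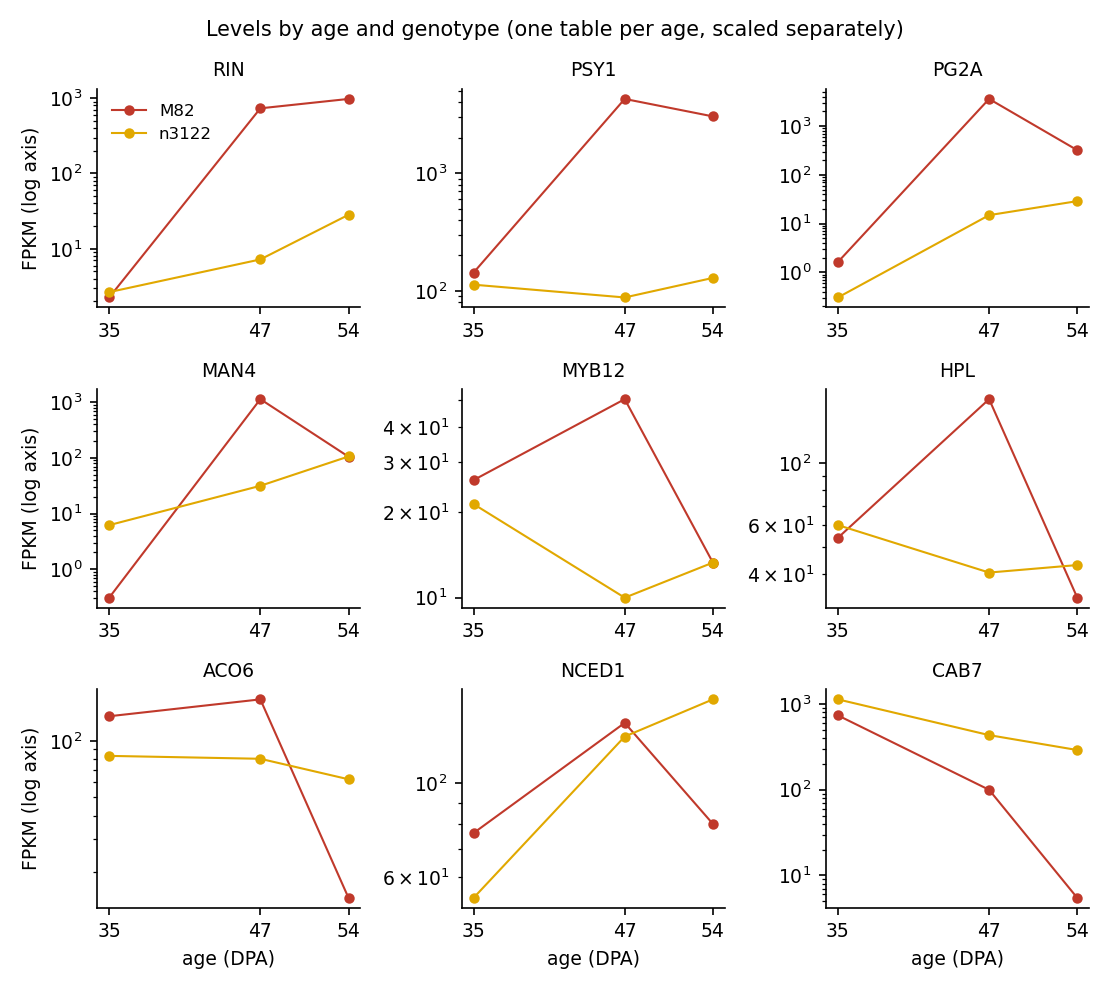
Levels in FPKM on log axes at 35, 47 and 54 DPA in M82 (red) and n3122 (yellow), one value per group, from 3 tables scaled separately. RIN, PSY1 and PG2A stay apart at 54 DPA (977 against 28.3 FPKM for RIN), MAN4 (105 and 106) and MYB12 (13.3 in both) meet, HPL is not called, and ACO6, NCED1 and CAB7 are higher in n3122 at 54 DPA.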

How the data were processed

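RNA sequencing data of tomato pericarp were used as 3 of the 4 tables the authors deposited, for 35, 47 and 54 DPA. The tools named in the submitters' processing notes are CASAVA, TopHat2 (2.0) and Cufflinks, with no role or order. The genome build is not given in the sources used here, nor is the annotation. Per the file headers, a deposited table holds for every gene an FPKM per group, pooled over libraries, and the authors' p-value and q-value. By the rule given in the Results, 18796 genes counted as tested at 54 DPA. Recomputing Benjamini-Hochberg values from their p-values gave the deposited q-values to within 5.23e-07. The smallest p-value was 5e-05, shared by many genes, which cannot be ranked among themselves.

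Fold changes were computed from FPKM with a pseudocount of 1 FPKM in Python 3.11.15 with pandas 2.3.3, after a minimum of 1 FPKM in either group; this left out 34 called genes. No test of single genes could be made without values per library, so calls are the authors'. The adjustment was checked on simulated p-values. The fold formula was checked only on planted changes with a negligible pseudocount, so the pseudocount of 1 FPKM was not part of that check. Samples were grouped by title.

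The files give identifiers only. Of 257 pairs of symbol and identifier written from general knowledge, 198 were kept because a gene of that name lies on the same chromosome of the reference table (assembly SLM_r2.1) within 5% of the same relative place; 21 of these were reached by another name. For 50 the table held no such name and 9 lay elsewhere. The reference table calls the gene reached for E8 ACO3, and the gene named ACO3 here carries that name as a synonym there. Close neighbours cannot be told apart this way. The members and lists were chosen with earlier results of these data known. Listed genes were named freely, though some are not reported here; other genes were taken from the 12 called genes with the highest and the 12 with the lowest fold changes, and from the 6 most abundant called genes of each group. Solyc02g068870, outside that rule, was named after its values were seen. Alternatives changed the q-value, minimum fold, filter, pseudocount, adjustment and scaling.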

Additional observations from a re-analysis of the deposited data

How the results depend on the processing

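With the authors' deposited q-values held to 0.01, the calls at 54 DPA were 2488 higher and 1389 lower, and with a log2 fold change of at least 1 they were 2251 and 1040. Without the minimum of 1 FPKM the numbers were 3409 and 2165, with 1 FPKM in both groups 2653 and 1940, with 5 FPKM in either 2720 and 1986, and with p-values adjusted over the filtered genes 3384 and 2162. The calls shared in direction with 47 DPA numbered 2127 at a q-value of 0.01 and 2073 with a log2 fold change of at least 1 at both ages, alternatives chosen after seeing the data. Over all lists, 47 genes were higher and 50 lower at a q-value of 0.01, and 45 and 41 with a log2 fold change of at least 1; by that minimum, 2 of the carotenoid genes up to lycopene (PSY1 and Z-ISO) and 3 of the epidermis markers still counted. The median log2 fold change ran from -0.07 to 0.04 over the filters, pseudocounts and scalings. Setting the median ratio to 0 or taking totals without the 13 most abundant genes moves all genes nearly alike, by 0.06 and 0.07 on the log2 scale. No paired analysis was possible because the tables hold one value per group, and for the same reason no replicate could be left out.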
